A study of Mus musculus with 8 samples.

Results

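The livers of 3-month-old Sirt1-null (MT) mice were set against the livers of wild type (WT) mice of 3 ages, so that a gene had to leave the whole span of WT levels to be described. The comparison used all 8 arrays of the series, 2 of MT mice and 6 of WT mice (2 each at 3, 12 and 19 months), and all 45037 probe sets that were not Affymetrix controls. A probe set was taken as outside the WT range when both MT arrays lay above the highest, or both below the lowest, of the 6 WT arrays, which held for 4946 probe sets (11%). With each gene read by its probe set of highest mean, 2319 of 18193 genes (12.7%) were outside, and 15.8% of the 10975 genes in the upper 50% of mean signal.

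All mice had the strains 129, FVB and Black Swiss mixed in their background. MT mice carried a targeted deletion of part of Sirt1, a genotype of which few animals reach adulthood. The labels name no other allele and no treatment, and livers of every group were harvested in the same morning window. Livers were the tissue, and the time at which a single mouse was killed is not given. The groups are described with more mice than arrays, and no source says if RNA of several mice was pooled on an array. The p-values thus measure only how these samples spread, some of which may be technical. The MT arrays were of 1 age, so the comparison with the older WT mice joins genotype with age.

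SIRT1 is a deacetylase that needs NAD+ and acts on histones and on many regulators of transcription. In the liver clock the activators BMAL1 (encoded by Arntl) and CLOCK or NPAS2 bind E-box elements and switch on the Per and Cry genes, whose products then repress the activators. The same elements drive Dbp, Tef, Usp2 and other output genes, while ROR and REV-ERB receptors act on ROR elements of Arntl, so that output genes and Arntl are high at opposite times of day.

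RNA was read on Affymetrix Mouse Genome 430 2.0 arrays, and the values are MAS5 signals on a linear scale. Array medians were 74.5 to 82.8. Correlations of log2 signals, taken over probe sets, were 0.913 to 0.926 within a group, 0.911 to 0.922 between WT ages and 0.909 to 0.918 between MT and WT. The hepatocyte markers marked the tissue as liver, with summed signals of 701716 to 738798 on the MT arrays and 574881 to 732670.0 on the WT arrays over 16 genes. The Xist signal reached at least the 95.2nd percentile and 11 Y-linked probe sets were at or below the 55.4th on all 8 arrays, while the methods describe the mutants of this experiment as male. The 3' over 5' log2 ratio of beta-actin, a sign of RNA integrity, was 0.968 and 1.48 on the MT arrays and 1.09 to 1.31 on the WT arrays.

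Sirt1 itself was read by 1 probe set, with signals of 437 to 716 (median 594) on the 6 WT arrays, against 615 and 713 on the MT arrays. The log2 difference, MT minus WT, was 0.20 ± 0.18 (SE, n = 2 and 6 arrays, limma adjusted p = 0.812), and the MT arrays lay inside the WT range. The position of the probe set with respect to the deletion could not be looked up here, and the signal is therefore a check of neither genotype nor labels.

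Of the 4946 probe sets outside the WT range, 2678 (5.95% of all) were above it and 2268 (5.04%) below it. The gap, which is the log2 distance between the nearest MT and the nearest WT array, had a median of 0.14 above the range and 0.17 below it, and it was over 1 in 94 and 143 probe sets, of which 12 and 20 were in the upper 50% of mean signal. With each array centred on its median signal, the share of outside probe sets that were above the range went from 54.1% to 42.0%, so a small gap has no settled direction. The test was limma on log2 signals floored at 1 with all 6 WT arrays as 1 group, which puts the spread between WT ages into the error. It called 40 probe sets (0.0888%) at an adjusted p under 0.05, 13 higher (0.0289%) and 27 lower (0.06%) in MT mice, and all 40 were outside the WT range. The split turned with a floor of 16, which gave 86 higher and 23 lower, so the balance of directions is not settled. They belonged to 34 genes, 9 higher and 25 lower, and 28 (0.154%) were called by the probe set of highest mean. Of these 28, 22 missed the threshold without MT array 1, 25 without MT array 2 and 4 to 18 without a WT array. Permuting 2 arrays against 6 (exact test) gives 0.0714 as its smallest p, so the calls rest on the spread that limma shares across probe sets.

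Clock genes had some of the widest gaps. Usp2, a ubiquitin-specific protease with a strong daily rhythm, had signals of 111 to 443 (median 247) on the WT arrays, against 2754 and 2855 on the MT arrays. It rose 12.2-fold, a log2 difference of 3.61 ± 0.43 (SE, n = 2 and 6, limma adjusted p = 0.00989), with a gap of 2.64, and a second probe set rose by 3.06 (adjusted p = 0.0255). Both MT arrays were thus over 6-fold above every WT array, the highest of which was array 2 at 12 months. Wee1, a kinase that holds back mitosis and follows the clock, had signals of 119.9 to 306 (median 199.6) in WT and 867 and 856 in MT mice, and rose by 2.16 ± 0.34 (adjusted p = 0.0454).

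The Per genes, which encode the repressors that close the clock loop, were above the WT range without passing the test. Per2 signals were 75.2 to 321 (median 266) on the WT arrays, against 1004 and 967 on the MT arrays, a log2 difference of 2.40 ± 0.54 (adjusted p = 0.143) with a gap of 1.59. The WT arrays were split by age, with the 3-month arrays at 83.2 and 75.2 and the other 4 between 227 and 321, and this spread is part of the error here. With the 4 groups fitted separately, the same difference passed (adjusted p = 0.00136), as it did against the 12- and 19-month arrays alone (1.78, adjusted p = 0.0147). Per3 signals were 124 to 467 in WT and 1054 and 1026 in MT mice, a difference of 2.02 ± 0.45 (adjusted p = 0.142), though a dimmer probe set had the other sign (-0.29). Per1 barely left the range, with 192 to 516 in WT and 519.9 and 677 in MT mice (difference 0.77, gap 0.01).

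Dbp, which encodes a PAR bZIP activator of many liver output genes, had signals of 252 to 3125 (median 1076) in WT mice and 6904 and 9385 in MT mice. Its difference of 3.06 ± 0.75 did not pass (adjusted p = 0.188), and the WT arrays alone spanned over 10-fold, with array 2 at 12 months highest. Ciart, a repressor of BMAL1 and CLOCK, was low in WT mice at 8.06 to 78.1 and reached 346 and 438 in MT mice. With the WT level set to the array median, which it lay below, the MT level was higher by at least 4.86-fold, without passing the test (adjusted p = 0.133). Tef, another PAR bZIP gene, and the repressor gene Cry1 were above the range by gaps of 0.14 and 0.13, with differences of 0.88 and 1.10 (adjusted p = 0.248 and 0.373). Nr1d1, which encodes the repressor REV-ERB alpha, lay below the range, at 126 and 115 against 181 to 287, a difference of -1.01 ± 0.22 (adjusted p = 0.142). Its family member Nr1d2 (0.48), like Cry2 (0.40), Bhlhe40 (0.13), Bhlhe41 (0.51) and Hlf (0.19), was inside the range. Without the 3-month WT pair the Hlf value was -0.02.

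The genes that peak with Bmal1 lay on the other side. Npas2, the partner that can stand in for CLOCK, had signals of 70.1 to 272 (median 119) in WT and 8.83 and 3.71 in MT mice, and was called lower (adjusted p = 0.0137). Both MT signals were far below the array median, so the fall is given only as at least 1.5-fold. Arntl had signals of 326 to 718 (median 562) in WT and 169.9 and 176 in MT mice, and changed by -1.61 ± 0.26 (adjusted p = 0.0468). Its lowest WT array was again array 2 at 12 months, and without that array the adjusted p was 0.0104, while leaving out any other array gave 0.0671 to 0.195. Clock (-0.40, gap 0.05) and Rora (-0.32, gap 0.04) lay just below the range and Nfil3 (-0.73) inside it, none of them passing. A dimmer probe set of Rora had the other sign (1.99), and a dimmer probe set of Arntl was inside the range (-0.75, adjusted p = 0.633).

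By list, 9 of 15 measured clock genes with E-box control or PAR bZIP products were above the range and 1 below, beside 6.45% and 6.29% of all genes, and 2 were called higher. Their median log2 difference was 0.88, against 0.02 over all genes. Of 5 measured genes of the Bmal1 phase, 4 were below the range and 2 were called lower, with a median of -0.73. These lists were chosen with earlier results of these data known. Among 14 clock genes outside the range, array 2 at 12 months was the WT array nearest to the MT mice for 8, whereas over all outside probe sets it was nearest for 16.7%. The part of that array in the clock values was not tested beyond leaving it out.

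**Figure D1:**
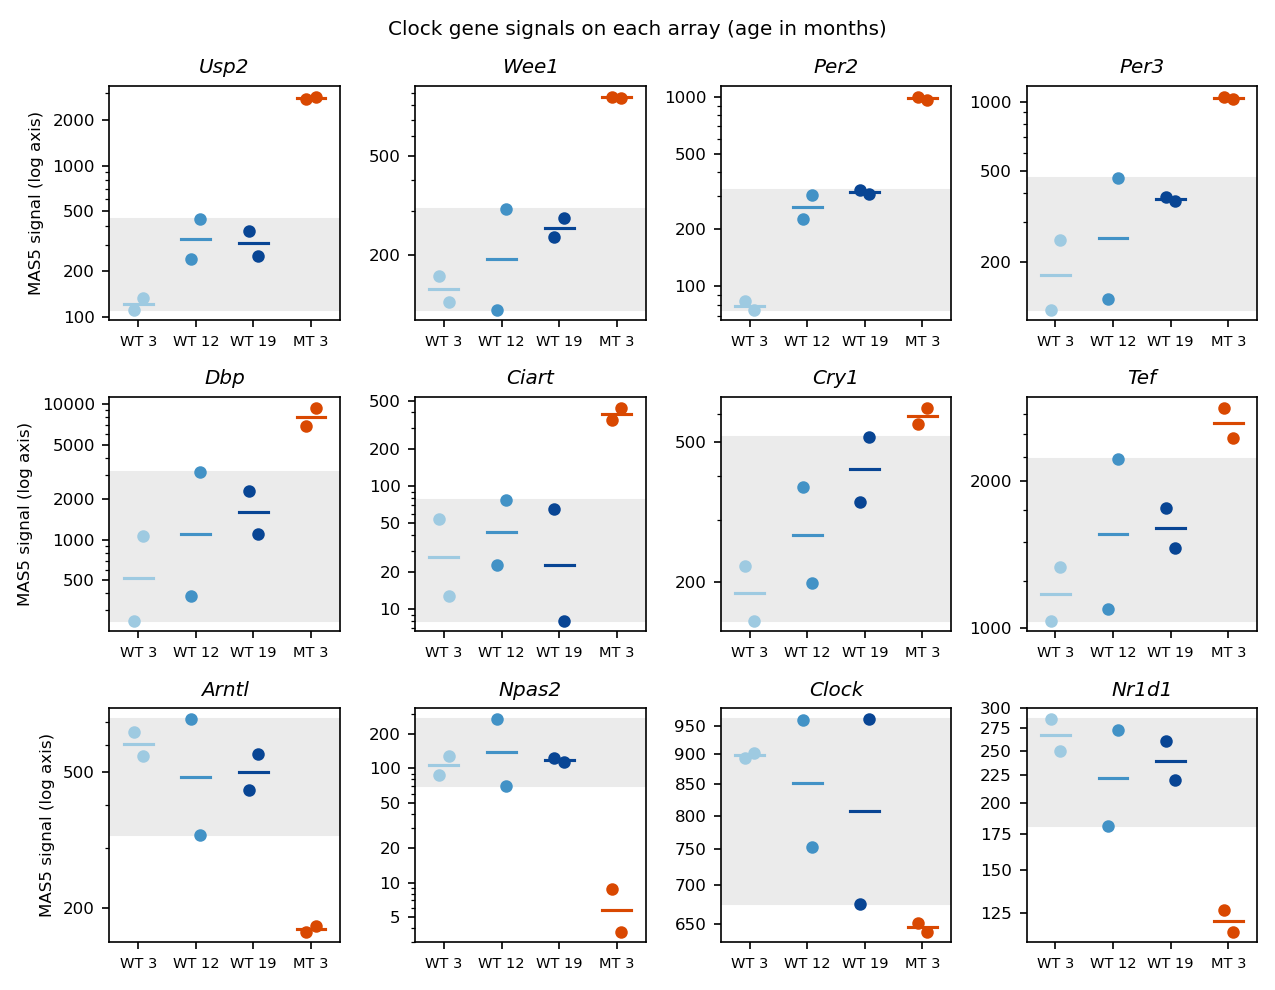
MAS5 signal on a log axis for 12 clock genes, with a point per array, a line at the geometric mean of each pair and a grey band over the range of the 6 WT arrays. Usp2, Wee1, Per2, Per3, Dbp, Ciart, Cry1 and Tef lie above the band in MT mice, and Arntl, Npas2, Clock and Nr1d1 below it.

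The promoters of these genes were searched in RefSeq windows of 300 bases (250 before and 50 after each listed start, build GRCm38.p6), on both strands. The first list was chosen partly for E-box control, so its share of E-boxes cannot be read as a result. The E-box CACGTG was in a window of 5 of 12 clock genes of the first list that had one, against 8.09% of all 27025 genes. It was found in Per1, Cry1, Ciart, Bhlhe41 and Tef and not in Usp2, Dbp, Per3, Cry2, Nr1d1, Nr1d2 or Hlf, which says only that these letters are not in this window. Windows for Per2, Wee1 and Bhlhe40 were not in the table used here. Over all genes above the WT range 12.4% of 944 held the E-box, and 9.84% of 935 below it, beside 10.3% of 14367 measured genes. The core of the ROR element, TAGGTCA, was in Arntl and Nfil3 of the 5 Bmal1-phase genes and in 2.97% of all genes. A match is a description of sequence and not a binding site.

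Windows of 4 clock genes outside the range that held a match are shown, 3 with an E-box and 1 with the ROR core, with the matched element in capitals. Ciart (chr3:95882179-95882478, minus strand) had 3 E-boxes, and 3 or more were found in 0.0925% of all genes. Cry1 (chr10:85185005-85185304, minus strand) and the first window of Tef (chr15:81802423-81802722, plus strand) had 1 each. The second window of Arntl (chr7:113207261-113207560, plus strand) had 1 ROR core, which begins 30 bases after the start.
Ciart: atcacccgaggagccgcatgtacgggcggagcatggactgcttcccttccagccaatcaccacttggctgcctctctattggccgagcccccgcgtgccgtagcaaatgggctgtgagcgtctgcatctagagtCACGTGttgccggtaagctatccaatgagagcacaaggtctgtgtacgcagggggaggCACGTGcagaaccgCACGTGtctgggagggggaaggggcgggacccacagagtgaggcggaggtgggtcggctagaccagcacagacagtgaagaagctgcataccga
Cry1: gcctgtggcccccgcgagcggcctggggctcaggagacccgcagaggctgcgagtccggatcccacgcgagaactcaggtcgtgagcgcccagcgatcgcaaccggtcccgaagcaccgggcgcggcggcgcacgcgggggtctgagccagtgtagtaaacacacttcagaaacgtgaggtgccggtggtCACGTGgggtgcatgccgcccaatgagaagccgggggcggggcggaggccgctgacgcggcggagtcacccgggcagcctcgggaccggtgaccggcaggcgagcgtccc
Tef: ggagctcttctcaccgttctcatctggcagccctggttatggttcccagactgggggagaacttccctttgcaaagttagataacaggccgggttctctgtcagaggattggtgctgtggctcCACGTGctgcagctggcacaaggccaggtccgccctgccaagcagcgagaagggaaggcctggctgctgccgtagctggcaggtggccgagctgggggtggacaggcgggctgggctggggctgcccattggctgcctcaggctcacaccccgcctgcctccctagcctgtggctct
Arntl: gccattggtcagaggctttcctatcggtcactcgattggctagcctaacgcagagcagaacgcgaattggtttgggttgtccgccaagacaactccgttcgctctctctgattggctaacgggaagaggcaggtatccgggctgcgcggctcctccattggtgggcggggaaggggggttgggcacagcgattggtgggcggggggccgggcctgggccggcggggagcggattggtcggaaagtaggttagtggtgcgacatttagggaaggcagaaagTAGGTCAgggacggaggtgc

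Outside the clock, the gene with the clearest rise was Coq10b, which encodes a coenzyme Q-binding protein of the mitochondrion. Its signals were 458 to 773 (median 552) in WT mice and 2103 and 1885 in MT mice, a rise of 1.80 ± 0.19 (SE, n = 2 and 6, limma adjusted p = 0.00389). A second probe set, of a kind that can also read related transcripts, rose by 2.37 (adjusted p = 0.00189). No WT array of any age came within a factor of 2 of either MT array, and the difference varied little with WT age (1.85, 1.85 and 1.69 against 3, 12 and 19 months). Its promoter window (chr1:55052520-55052819, plus strand) holds 1 E-box and is shown because Coq10b was the called gene outside the clock lists with the largest rise.
Coq10b: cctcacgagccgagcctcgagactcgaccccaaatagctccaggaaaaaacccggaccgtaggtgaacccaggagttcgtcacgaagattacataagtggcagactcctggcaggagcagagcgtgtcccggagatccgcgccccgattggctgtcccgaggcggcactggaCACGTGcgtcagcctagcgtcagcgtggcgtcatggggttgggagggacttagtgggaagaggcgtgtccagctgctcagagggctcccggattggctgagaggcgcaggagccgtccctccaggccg

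Other called increases were smaller. Srsf3, a splicing factor, had signals of 2666 to 3616 in WT and 5631 and 5632 in MT mice, a difference of 0.94 ± 0.13 (adjusted p = 0.0248). A second probe set was also called (adjusted p = 0.0298), and another was inside the range at -0.36. Inmt, an amine N-methyltransferase abundant in liver, rose by 0.93 ± 0.15 from 13648 to 19162 in WT to 29709 and 33122 in MT mice (adjusted p = 0.0454). Gde1, a glycerophosphodiester phosphodiesterase, rose by 0.95 and had the smallest gap among the called genes, 0.49. Mettl1, a tRNA methyltransferase, rose by 1.07 and Preb, an exchange factor of vesicle transport, by 0.72 (adjusted p = 0.0371 and 0.0454). The probe sets of these last 2 genes are of the type that can cross-hybridise.

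Among the genes that fell, Mrnip, which encodes a partner of the MRE11-RAD50-NBN complex of DNA break repair, had signals of 368 to 571 (median 504) in WT mice and 90.9 and 99.0 in MT mice. It fell 5.05-fold, a difference of -2.34 ± 0.20 (SE, n = 2 and 6, limma adjusted p = 0.00189), and kept its call whichever array was left out (adjusted p at most 0.0226). Cda, cytidine deaminase of pyrimidine salvage, was at 495 to 684 in WT and 168 and 195 in MT mice, a difference of -1.65 ± 0.16 (adjusted p = 0.00266, at most 0.0499 with any array left out). Among the 28 genes called by their probe set of highest mean, Mrnip and Cda were the only ones with this property. Other settings took the call away. Both missed the threshold in the methods' t-test after Benjamini-Hochberg adjustment (adjusted p = 0.086 for each). Cda also missed it in limma without a variance trend (0.0592) and against the 3-month WT pair alone (0.0593). Of the 2 Mrnip probe sets, 1 was called. Ypel2, of the Yippee family of zinc-binding proteins, went from 1456 to 1934 in WT to 629 and 555 in MT mice (-1.53, adjusted p = 0.00258), and its second probe set differed by -1.46. Of the 8 arrays left out in turn, it missed the threshold only without MT array 2 (adjusted p = 0.0521).

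Several metabolic and secreted proteins were among the genes that fell. Ppp1r3c, which brings protein phosphatase 1 to glycogen, was at 3372 to 6648 in WT and 1492 and 1423 in MT mice, a difference of -1.74 ± 0.21 (adjusted p = 0.00989). Serpina12, which encodes the secreted serpin vaspin, was at 2571 and 535 in MT mice against 6085 to 12796 in WT mice (-2.81 ± 0.43, adjusted p = 0.0404). Its MT arrays differed from each other by more than 4-fold, and the difference was -1.68 without MT array 2 and -3.94 without MT array 1 (adjusted p = 0.121 and 0.00244). A2ml1, related to the protease inhibitor alpha-2-macroglobulin, fell by 1.85 (adjusted p = 0.00989) and Tfpi2, another protease inhibitor, by 0.83 (adjusted p = 0.0454). Clpx, the ATPase of the mitochondrial ClpXP protease, fell by 1.06 from 6935 to 10226 in WT to 3850.2 and 4286 in MT mice (adjusted p = 0.0248), and Arsg, a lysosomal sulfatase, by 1.15 (adjusted p = 0.0468).

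Regulators and less studied genes made up the rest. Cpeb4, which binds polyadenylation elements of mRNA, fell by 1.12 and by 1.24 on its 2 called probe sets (adjusted p = 0.0346 for each). Rfx4, a transcription factor of the RFX family, differed by -1.78 (adjusted p = 0.0341), Denn2b by -1.19 (adjusted p = 0.0248) and the predicted gene Gm2788 by -1.78 (adjusted p = 0.0054). Notch1, the signalling receptor, had the narrowest WT spread of the called genes that were named, 881 to 973, with 547 and 564 in MT mice (-0.74, adjusted p = 0.0454). Wrnip1, a partner of the Werner helicase, and Ube2h, a ubiquitin-conjugating enzyme, differed by -0.83 and -0.98 (adjusted p = 0.0346 and 0.0468). The Ube2h probe set, 1 of 4 and the only one called, is also of the type that can cross-hybridise. Serinc2 was at 65.6 to 204 in WT and 8.1 and 16.4 in MT mice, so that it fell at least 1.57-fold (adjusted p = 0.0312). Cpeb4, Notch1, Tfpi2, Wrnip1 and Ube2h are named after their values were seen, since they stood outside the 15 largest gaps.

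Another 6 genes were called only through a probe set that was not their brightest. Cdkn1a, which encodes the cell cycle inhibitor p21, had signals of 371 to 1371 in WT and 123 and 142 in MT mice on its brightest probe set (-2.24 ± 0.39, adjusted p = 0.0687). On the called probe set it fell from 216 to 675 to 90.8 and 28.4 (adjusted p = 0.0298), at least 5.45-fold lower. Tab2, an adaptor of the kinase TAK1, and Fbxl20, an F-box protein, fell by 1.25 and 1.36 on the called probe set (adjusted p = 0.00697 and 0.011), and another probe set of Fbxl20 was at 0.08. Capn1, a calpain, passed only on a dimmer probe set (adjusted p = 0.0473) and was inside the range on its brightest (-0.36). On the dimmer one it was at 72.8 to 109 in WT and 21.3 and 12.3 in MT mice, at least 1.15-fold lower.

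**Figure D2:**
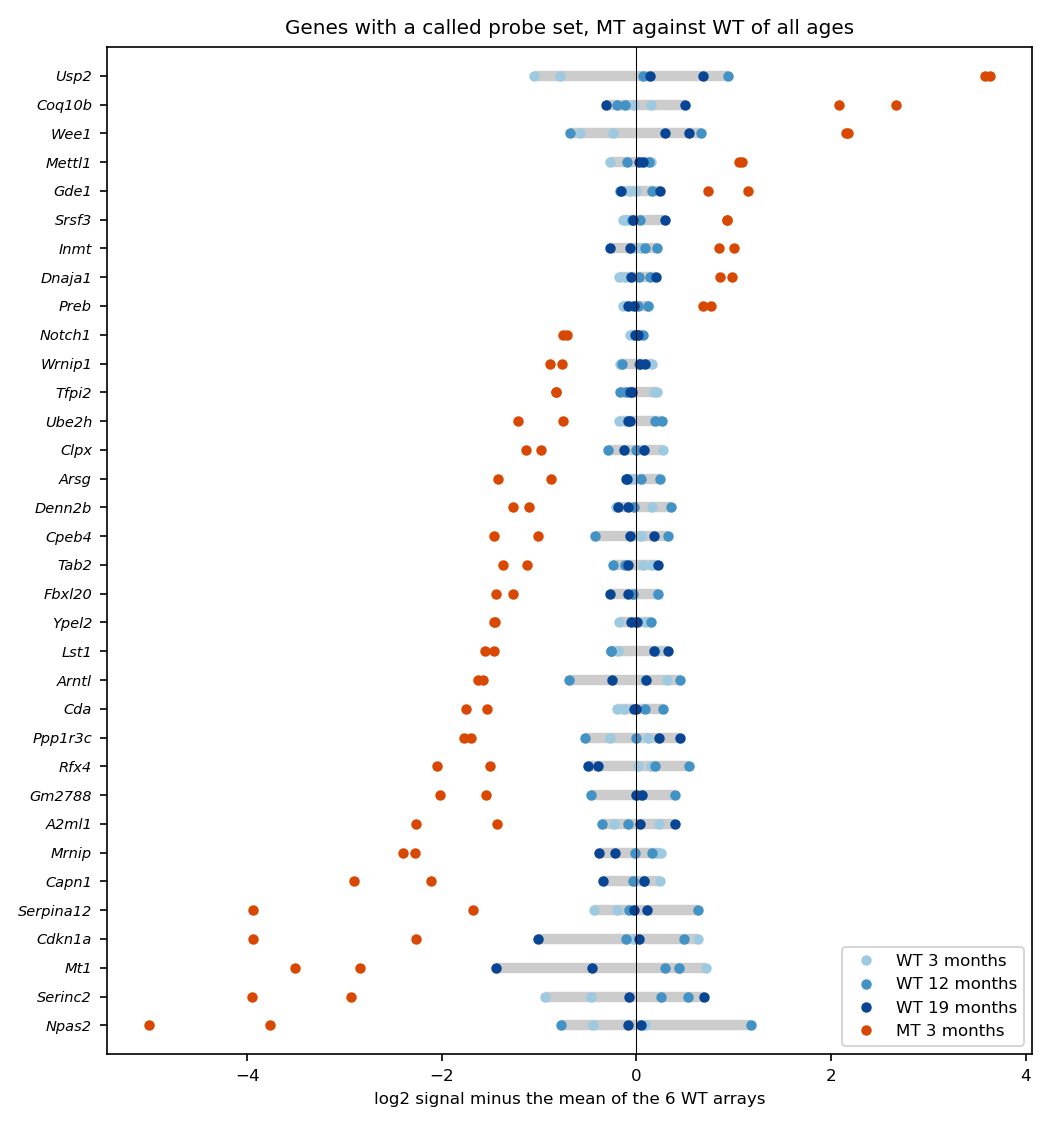
Log2 signal minus the mean of the 6 WT arrays for the 34 genes with a called probe set, each on its probe set of smallest p, with a point per array and a grey bar over the WT range. The MT points lie outside the bar for every gene, on the right for 9 genes and on the left for 25. The MT means of Npas2, Serinc2, Capn1, Cdkn1a and Mt1 are below the array median, so their distance is not exact.

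Mt1 and Mt2 encode metallothioneins, small proteins that bind zinc and copper, and both had low signals in MT mice. Mt2 signals were 3482 to 24112 (median 8242) in WT and 1195 and 1594 in MT mice, a difference of -2.70 ± 0.53 that did not pass (adjusted p = 0.0957). The WT arrays spanned nearly 7-fold, and both MT arrays were below all of them. Mt1 was called lower on 1 probe set, from 258 to 1156 in WT to 61.5 and 98.2 in MT mice, a fall of at least 8.77-fold (adjusted p = 0.0312). On its brightest probe set MT array 2 was inside the WT range (-1.73, adjusted p = 0.189). Of 13 measured genes of metallothioneins and zinc transport 1 was below and 1 above the range, beside 6.29% and 6.45% of all genes. The list median was 0.01, and -0.04 after centring. The member above the range was the zinc transporter gene Slc39a7 (0.37, adjusted p = 0.453). The core of the metal response element, TGCNCNC (N is any base), is common, in 53.6% of all genes, but 6 or more copies are held by 0.263%. The Mt2 window (chr8:94172368-94172667, plus strand) has 6 and is shown for that reason, with the matches of either strand in capitals.
Mt2: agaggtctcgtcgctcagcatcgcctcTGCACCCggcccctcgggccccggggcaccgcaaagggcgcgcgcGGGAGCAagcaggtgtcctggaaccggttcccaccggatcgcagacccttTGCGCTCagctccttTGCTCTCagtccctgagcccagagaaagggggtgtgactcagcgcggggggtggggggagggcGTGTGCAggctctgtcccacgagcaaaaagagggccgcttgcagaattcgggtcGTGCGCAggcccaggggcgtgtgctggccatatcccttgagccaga

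Heat shock chaperones, which help proteins fold, were above the WT range for 9 of 17 measured genes and below it for 1. The shares over all genes were 6.45% and 6.29%, and the list median was 0.53. Dnaja1, a co-chaperone of HSP70, was called on 2 probe sets. On the first it went from 5036 to 6539.7 in WT to 11312 and 10389.5 in MT mice (0.92 ± 0.13, adjusted p = 0.0255), and the difference on the second was 0.90. Its brightest probe set did not pass (0.72, adjusted p = 0.0984). None of the other members passed. Hspa1b, an inducible HSP70, was at 1347 to 2377 in WT and 3408 and 5944 in MT mice (1.35 ± 0.24, adjusted p = 0.0689), and a near-identical copy, Hspa1a, may share its signal. Hsph1 (0.81), Hspa8 (0.76), Hsp90aa1 (0.65), Dnajb1 (0.64) and Dnajb4 (0.74) were above the range with adjusted p of 0.0695, 0.197, 0.109, 0.187 and 0.144. The small heat shock protein gene Hspb1 was below it (-0.79, adjusted p = 0.25).

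Among 15 chaperone genes with a promoter window, 9 held the heat shock element core GAANNTTC (N is any base), against 9.04% of all genes. This motif was added after the values were seen. The first window of Dnaja1 (chr4:40722218-40722517, plus strand), shown as that of the called member, has 1 match, which begins 124 bases before the start.
Dnaja1: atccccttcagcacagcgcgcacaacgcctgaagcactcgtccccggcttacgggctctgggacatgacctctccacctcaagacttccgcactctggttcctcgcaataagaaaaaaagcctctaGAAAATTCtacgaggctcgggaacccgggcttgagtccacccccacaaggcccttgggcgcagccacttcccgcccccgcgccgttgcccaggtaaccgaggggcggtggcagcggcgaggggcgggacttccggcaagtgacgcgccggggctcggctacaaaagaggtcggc

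Genes of DNA replication and S-phase entry were above the WT range for 11 of 23 measured members and below it for 0. Over all genes these shares were 6.45% and 6.29%. The list median was 0.52, although none of its members passed the test. The subunits of the MCM helicase, which unwinds DNA at origins, were among them, and Mcm4 was at 169 to 376 in WT and 622 and 649 in MT mice (1.25 ± 0.26, adjusted p = 0.109). For Mcm5 the signals were 75.8 to 303 and 479.8 and 593 (1.72, adjusted p = 0.228), with Mcm2, Mcm3 and Mcm6 at 1.43, 1.26 and 1.62. Only Mcm7 (0.22) and Mcm10 (-0.42) of the 7 measured MCM genes were inside the range. Cdt1, which loads the helicase, was above it (0.89), as were the G1 cyclin genes Ccnd1 (1.07), Ccne1 (1.03) and Ccne2 (1.30). WT levels of the last 2 were below the array median, so that they were at least 1.75- and 2.35-fold higher. Dimmer probe sets of Cdt1 (0.66 and 0.05) and a dimmer probe set of Ccnd1 (0.86) were inside the range. Another probe set of Ccnd1 was above it (0.96). Genes of ribonucleotide reductase and thymidylate synthase were inside the range, with Rrm1 at 0.52, Rrm2 at -0.40 and Tyms at -0.33. Here and in the lists that follow, members other than the called ones or the 2 of largest statistic are named after their values were seen.

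Cell cycle inhibitors and p53 targets lay the other way, with 6 of 17 below the range, 0 above and a median of -0.27. Over all genes 6.29% were below and 6.45% above. Beside Cdkn1a, Ccng2, an atypical cyclin, was at 985 to 2368 in WT and 316 and 653 in MT mice (-1.92 ± 0.31, adjusted p = 0.0506). Gadd45g, a growth arrest gene, was at 209.8 and 222 in MT mice against 382 to 2009.7 (-1.91, adjusted p = 0.21). Differences were smaller for Ccng1 (-0.36), Mdm2 (-0.42) and Sesn1 (-0.33), and Cdkn1b, Btg2 and Gadd45a (-0.22, 0.02 and 0.06) were inside the range.

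In DNA repair, 2 of 18 genes were above the range and 2 below, Mrnip among them as the only call. The shares over all genes were 6.45% above and 6.29% below. Dclre1a, a nuclease of crosslink repair, was at 511 to 1141 in WT and 2163 and 2187 in MT mice (1.37 ± 0.28, adjusted p = 0.105). Its WT signal was lowest at 3 months, and against WT mice of each age the differences were 1.98, 1.09 and 1.05, each of which passed in the fit of 4 groups. Rad50, a member of the complex that Mrnip binds, differed by -0.30 and Mre11a and Nbn by 0.05 and 0.07, none of which passed. Purine synthesis had 3 of 11 genes above the range, led by Ppat, its first committed enzyme (1.24 ± 0.23, adjusted p = 0.0758), with Gmps at 0.77 and Gart at 0.45, and 1 below, Prps2 (-0.49).

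**Figure D3:**
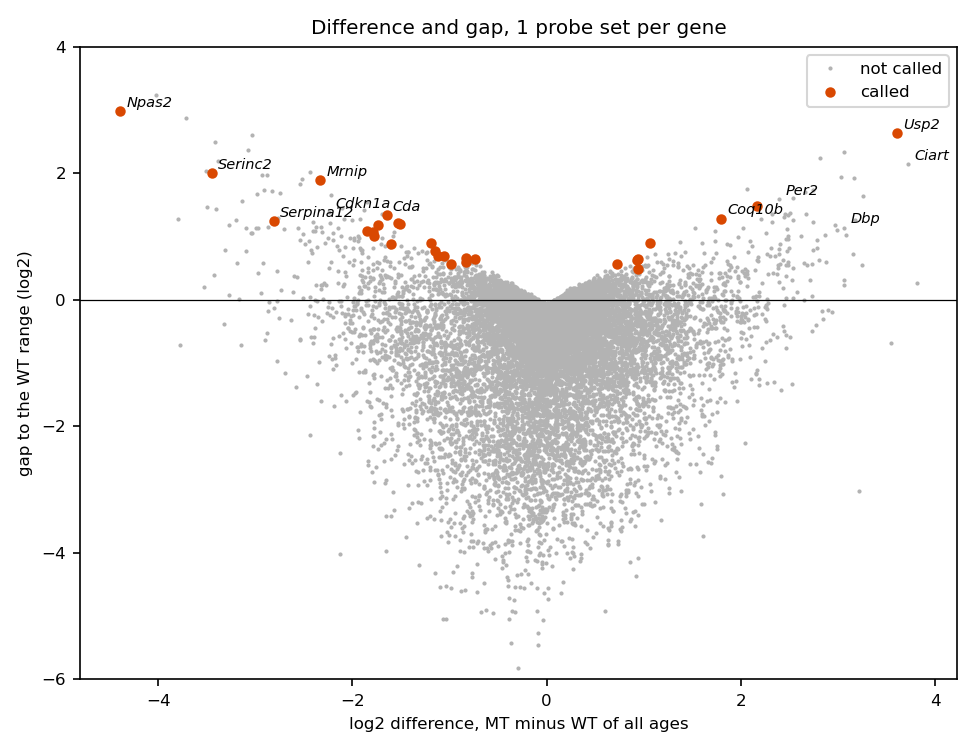
Log2 difference, MT minus WT of all ages, on the x axis and the gap to the WT range (log2) on the y axis for 1 probe set of each gene, with genes called by limma in orange. Points above 0 have both MT arrays outside the WT range. Usp2 and Mrnip have gaps of 2.64 and 1.89, while Npas2, Serinc2 and other points with signals below the array median have no exact distance.

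Of 15 measured genes of sirtuins and of NAD supply, on which SIRT1 depends, 1 (6.67%) was outside the range, beside 12.7% of all genes. Nampt, the rate-limiting enzyme of NAD salvage, was at 803 to 1373 in WT and 1972 and 2081 in MT mice (0.97 ± 0.19, adjusted p = 0.0957). The other sirtuins were inside, from -0.19 for Sirt5 to 0.41 for Sirt6. Alas1, the first enzyme of heme synthesis, was above the range at 7753 and 15047 against 2582 to 6578 (1.30 ± 0.32, adjusted p = 0.183).

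In lipid metabolism the lists differed in how many genes left the WT range, beside 12.7% of all genes. Of 22 genes of fatty acid synthesis 1 was above the range, the regulator Srebf1 (0.57, adjusted p = 0.501), and of 21 genes of fatty acid oxidation and PPAR alpha targets 0 were outside it. Fasn (0.21) and Acly (-0.16) took either sign, since without the 3-month WT pair Fasn was at -0.04 and against that pair alone Acly was at 0.17. In bile acid synthesis 4 of 18 genes were below the range and 1 above, with a median of -0.05. Cyp7b1, an oxysterol hydroxylase, was at 2956 to 7842 in WT and 1670.4 and 1620.2 in MT mice (-1.37 ± 0.32, adjusted p = 0.166). Its WT level was highest at 3 months, and the difference passed against WT mice of each age in the fit of 4 groups (-2.11, -1.09 and -0.91, adjusted p = 0.000403, 0.0271 and 0.0484). In cholesterol synthesis 3 of 18 were below and 1 above, with Pmvk at -0.87, Dhcr7 at -0.78 and Sc5d at -0.71.

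Among cytochrome P450 genes of families 1 to 3, 6 of 24 were above the range and 0 below, with a median of 0.18. The shares over all genes were 6.45% above and 6.29% below. The differences were modest, at 0.60 for Cyp1a2, 0.43 for Cyp2c50 and 0.35 for Cyp2c29 (adjusted p = 0.551, 0.459 and 0.535). In transport of bile acids and organic anions, Slco1a4 (1.02) and the efflux pump gene Abcc4 (0.98) were above the range and Slco1a1 (-0.75) and Abcg2 (-0.26) below it, of 15 measured. The sodium-dependent transporter Slc10a2, named after its values were seen, was at 399 to 2675 in WT and 233 and 71.8 in MT mice (-3.09 ± 0.65, adjusted p = 0.124).

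The growth hormone axis and sex-biased genes were measured beside each other, since growth hormone pulses set the sex bias of the liver. On all 8 arrays Xist was at or above the 95.2nd percentile and the Y-linked probe sets at or below the 55.4th, while the methods describe the mutants as male. The sex of the mice is thus not settled here, and these lists cannot be read as a change in male livers. Of 16 measured male-biased genes 6 were below the range and 1 above, with a median of -0.45, and Serpina12 was the only call. Over all genes 6.29% were below and 6.45% above. Elovl3, a fatty acid elongase, had a highest MT signal of 238 against 242 to 823 in WT mice (-1.57, adjusted p = 0.278), and the single gene above, Cyp4a12a, read at most 5.003, far below the array median. Of 16 female-biased genes 1 was below, Ntrk2 (-2.20, adjusted p = 0.0581). In the growth hormone and IGF list 3 of 15 were below and 1 above. Socs2, a feedback inhibitor of growth hormone signalling, was at 1269 to 4918 in WT and 444 and 987 in MT mice (-1.87 ± 0.43, adjusted p = 0.157), and Cish, another, at 272 to 858 and 134 and 268 (-1.62, adjusted p = 0.17). Igf1 was inside the range (-0.25).

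No member of the acute phase and interferon lists was above the range, beside 6.45% of all genes above it and 6.29% below it. In lists of this size an absence above the range is near that share. In MT mice 4 of 26 acute phase genes were below the range, with a median of -0.19, and 4 of 25 interferon response genes were below, with a median of -0.22. Orm3, an orosomucoid, was at 316 and 187 in MT mice against 336 to 715 (-1.12, adjusted p = 0.238), and Il1r1, the interleukin-1 receptor, differed by -0.70 (adjusted p = 0.2). Gbp6, a GTPase induced by interferon, was at 441 to 1205 in WT and 276 and 234 in MT mice (-1.66 ± 0.33, adjusted p = 0.0968), with Psmb8 of the immunoproteasome at -0.75. Lst1, a transcript of leukocytes, was called lower, from 244 to 367 in WT to 106 and 99.2 in MT mice (-1.51 ± 0.22, adjusted p = 0.0341).

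Markers of Kupffer cells and macrophages, the resident phagocytes of the liver, lay low on the same arrays. Beside 6.29% of all genes below the range and 6.45% above it, 6 of these 20 markers were below and 0 above. Of the 20 markers, 18 were under 0, and the median was -0.44. Their summed signal was 43876 to 45733 on the MT arrays and 46136 to 92071 on the WT arrays (exact permutation p = 0.0714, the smallest this design allows, and 0.367 adjusted over 12 marker lists). The 3 complement genes C1qa, C1qb and C1qc differed by -0.46, -0.57 and -0.64, and Mpeg1 by -1.03, while the defining markers Clec4f (-0.25) and Timd4 (-0.30) were inside the range. Dimmer probe sets of C1qb were also inside it, at -0.10 and -0.01. The highest WT sums were those of the 19-month arrays. The part of these markers in the values of Lst1 and the interferon genes was not tested, and in bulk liver fewer cells of a type and less RNA per cell cannot be told apart. Of the other marker lists, hepatocyte genes had 4 of 16 above and 0 below with a median of 0.13, endothelial genes 0 and 3 of 17 with -0.12, and antigen presentation genes 0 outside of 9 with -0.64.

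**Figure D4:**
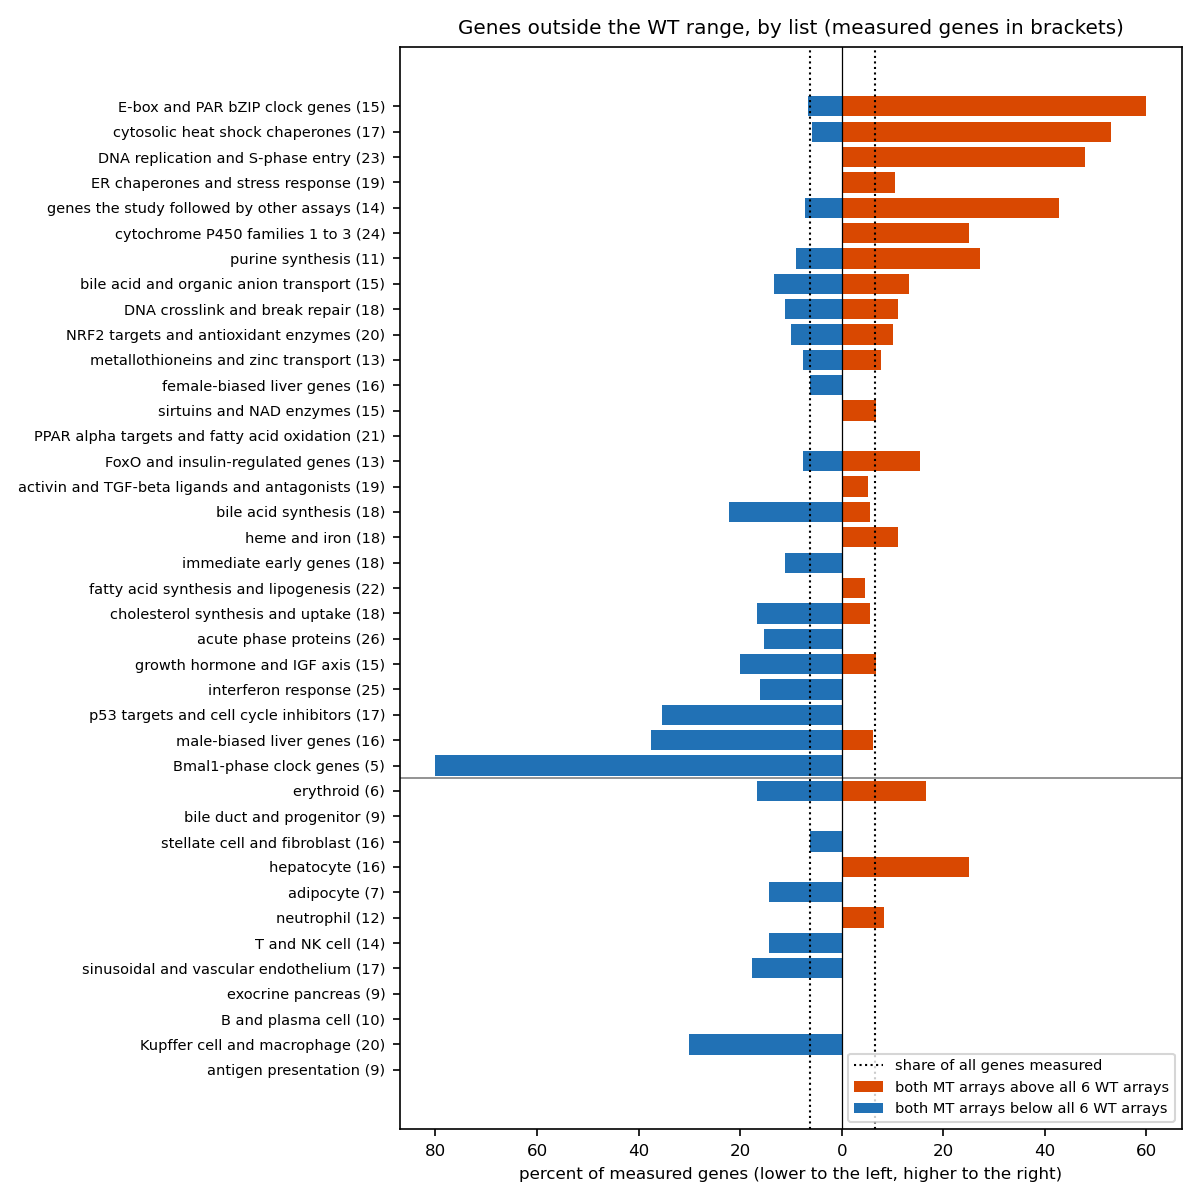
Percent of the measured genes of each list with both MT arrays above (orange, to the right) or below (blue, to the left) all 6 WT arrays, with the pathway lists on top and the cell type markers below the grey line. Dotted lines mark the shares over all genes, 6.45% and 6.29%. E-box clock genes, heat shock chaperones and replication genes reach farthest to the right and the Bmal1-phase clock genes farthest to the left.

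The study also followed a set of genes by other assays, a choice that may rest on these arrays, so their values are not independent evidence of a direction. Of 14 measured, 6 were above the range, 1 below and 1 called, beside 6.45%, 6.29% and 0.154% of all genes. Beyond Sirt1, Usp2, Cdkn1a and the clock genes above, Pck1, the rate-limiting enzyme of gluconeogenesis, was at 30494 and 36021 in MT mice against 15055 to 29354 (0.55, gap 0.05). G6pc (0.29), Mlxipl (-0.44) and Hif1a (-0.10) were inside the range. Cdkn2a was low on most arrays and changed sign with the WT pair used, from -0.80 over all ages to 1.42 against the 3-month pair alone. Kcnk5, a potassium channel gene, lay inside the range (0.19), with 570.3 and 560.2 in MT mice, above both 3-month arrays (350.3 and 296) and among the 4 older ones (509 to 685). Without the 3-month pair its difference was -0.12.

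The WT ages set side by side show which genes hung on the 3-month pair. In the fit of 4 groups, which shares the MT arrays between contrasts, 109 probe sets (0.242%) were called against WT mice of 3 months, 83 (0.184%) against 12 months and 57 (0.127%) against 19 months. Between WT mice, 3 (0.00666%) were called at 12 against 3 months and 8 (0.0178%) at 19 against 3 months. Mrnip differed by -2.57, -2.41 and -2.03 from the 3 ages, Cda by -1.48, -1.83 and -1.63, and Ypel2 by -1.71, -1.55 and -1.34, each passing at every age. Usp2 also passed at every age, with 4.53, 3.10 and 3.20. Wee1 was called only against 3 months (2.57, 2.17 and 1.74, adjusted p = 0.0259, 0.0593 and 0.143), and the differences between these values were not tested. Igha and Fst, named after their values were seen, show the other case. Igha, the IgA heavy chain of plasma cells, read 270.0 and 313 at 3 months in WT mice, 1553 to 3514 in older WT mice and 519 and 610.5 in MT mice, so that its difference went from 0.95 against 3 months to -2.38 against 19 months. Fst, which encodes follistatin, read 63.7 and 87.2 at 3 months in WT mice, 213 to 685 in older WT mice and 347 and 540.1 in MT mice, with differences of 2.54, -0.24 and 0.37. Neither left the WT range.

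**Figure D5:**
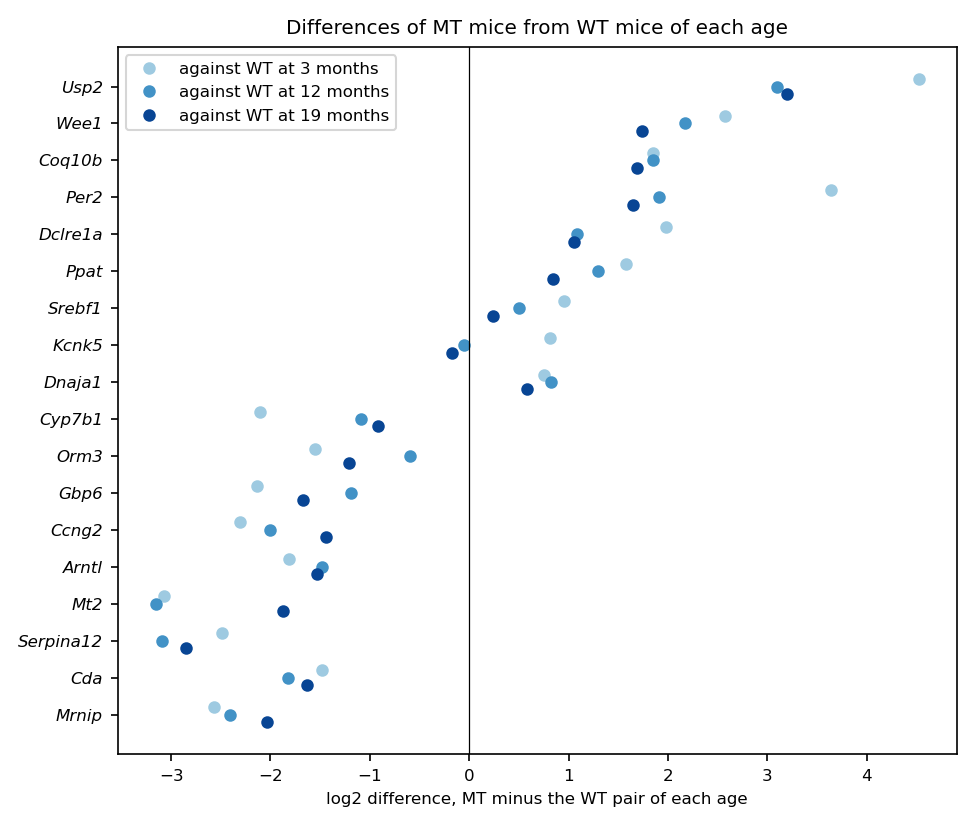
Log2 difference of MT mice from the WT pair of each age for 18 genes, with a point per age. The MT arrays are shared by the 3 points of a gene. Points of Coq10b run from 1.69 to 1.85, while those of Per2 run from 1.65 to 3.64.

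At the edge of the rule, Med22 was just outside the WT range, with 289.9 and 354 in MT mice against a highest WT signal of 289.9, and E2f3 just inside, with 242 and 282 against 242. Both gaps were under 0.001 in size, so genes near the edge are not separated by the rule in any useful way.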

How the data were processed

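Total liver RNA was hybridised to 1-colour Affymetrix Mouse Genome 430 2.0 arrays, and the deposited table holds 1 intensity per probe set and array, which the authors made with MAS5 (version not given in the sources used here) and scaled to the same trimmed mean. Their scaling fixes the mean level of each array, so a shift shared by all genes cannot be seen. Scanner files and detection calls played no part here, and the number of arrays limits the precision.

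Signals below 1 (1796 values) were set to 1 and log2 was taken. After 64 control probe sets were left out, 45037 were fitted with limma 3.58.1 (lmFit, then eBayes with trended variance, in R 4.3.3), adjusting by Benjamini-Hochberg over all of them,, with WT arrays of all ages as 1 group. A call is an adjusted p under 0.05. A second fit held the 4 groups apart. Symbols came from the platform annotation, with 1 symbol for 34945 probe sets, several for 932 and none for 9160, and 34741 of those with 1 were found in the RefSeq table. A gene was read by its probe set of highest mean. Where the lower group lay below the array median (80.1), the fold is a lower bound against that median.

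Named genes were, in each direction, up to 15 called genes of largest gap, the clock genes, Sirt1, the genes the study followed, and in each list the called members or else the 2 of largest statistic. Members, the 27 gene lists and the 12 marker lists were chosen with earlier results of these data known, and other genes were named after their values were seen. Promoters were RefSeq windows (GRCm38.p6) searched with Python 3.11.15, and pandas 2.3.3, numpy 2.4.6, scipy 1.17.1 and matplotlib 3.10.9 were used for tables, tests and plots. The ROR and heat shock motifs and the centred list medians were added after the data were seen. On simulated data for this comparison (45037 probe sets, 200 changed) the fit recovered 50% of 2-fold and 92% of 4-fold changes and called 6 unchanged ones. All 200 were drawn from the upper 50% of mean signal, and the noise was normal and independent between arrays, with no WT age groups. Recovery was thus not measured for dim probe sets or for genes whose WT level moves with age. Alternatives were quantile normalization, median centring, 16 as the floor or added before log2, the upper 50% of signal, other WT arrays, no variance trend, the methods' t-test, a replicate block and each array left out.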

Additional observations from a re-analysis of the deposited data

Results flagged for a closer look

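Among 126 named genes, 1 had a WT array that stood apart from the other 5. Smad7, an inhibitor of TGF-beta signalling, read 443 on WT array 1 at 12 months, and the gap to its nearest neighbour was 0.751 of the whole WT range, over Dixon's 95% critical value for 6 values. Chance gives about 1 such group in 20.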

How the results depend on the processing

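Against 40 calls, all outside the WT range, 109 were made with a floor of 16 (86 higher and 23 lower, against 13 and 27) and 19 with 16 added before log2, 145 (142 outside) with the 4 groups fitted apart, 25 without the 3-month WT pair, 80 against that pair alone, 14 without a variance trend and 124 at an adjusted p under 0.10. The methods' t-test at its threshold called 2104 (1837 outside), and 4 after Benjamini-Hochberg adjustment. Of the 28 genes called by their probe set of highest mean, 27 lost the call without a variance trend, and 27 lost it in the adjusted t-test. Nearly the whole list of calls thus rests on the variance trend. Quantile normalization and median centring left 38 and 35 calls and took Arntl past the threshold (adjusted p = 0.0541 and 0.0502). With 1 array left out there were 13 (MT array 2) to 58 (WT 12-month array 2) calls, with 16 without MT array 1 and 15, 17 and 21 without the 3-month arrays 1 and 2 and the 19-month array 1. Of the arrays left out, only the MT arrays took the call from Usp2 (adjusted p = 0.0914 and 0.114) and Coq10b (0.064 and 0.0521), which both also lost without a variance trend (0.147 and 0.097) and in the adjusted t-test (0.247 and 0.157), and Usp2 with a floor of 16 (0.0747). Arsg, Notch1 and Ube2h lost it without any 1 of the 8. Probe sets outside the range numbered 3145 in the upper 50% of signal, 7964 without the 3-month WT pair, 18072 against that pair alone and 5995 to 15257 with 1 array left out, the highest without MT array 1, and 14583 without MT array 2. With 1 MT array left out, the other is assumed to vary like the WT arrays. The outside counts rise by construction where fewer arrays set the range. The replicate numbers did not pair the samples (correlations of -0.0092 to 0.0044), and the fit with the replicate block called 19, with the same 19 outside.

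Differences turned sign for Bhlhe41 (-0.35 against the 3-month pair alone, and -0.093 to 1.11 without MT array 2 or 1), Hlf (-0.015 without the 3-month pair), Cdkn2a (1.42 against it alone), Kcnk5 (-0.12 without it), Igha (0.95 against it alone), Fasn (-0.040 without it, and -0.45 to 0.88 without MT array 1 or 2) and Acly (0.17 against it alone, 0.021 without WT 12-month array 1, and -0.48 to 0.16 without MT array 1 or 2), none of which was called, and the cause was not tested.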
